A study of Homo sapiens with 5 samples.

Results

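The tripartite motif (TRIM) genes were examined for promoter binding of PHF8 in cells of SKMEL-147, a long-established line from a human melanoma. Members were the autosomal protein-coding genes of GENCODE release 44 (lifted to the GRCh37 genome) whose symbol is TRIM or TRIML, a number and at most 1 letter, which gave 75 of 19229 autosomal protein-coding genes. The series holds 5 samples. Of these, 3 are ChIP-seq replicates (A, B1 and B2), in which crosslinked chromatin was pulled down with an antibody to PHF8 and sequenced, and the 2 labelled A and B are inputs, chromatin sequenced without the antibody. The study asked which genes PHF8 binds in these cells. The ChIP labels name neither a guide RNA nor a treatment, although the design text of the series speaks of a PHF8 loss model made with guide RNAs. Nothing in the labels says that the replicates came from separate cultures, so the spread between them may be technical, and which input served which replicate is not stated. A peak cannot tell more cells with PHF8 at a site from more PHF8 per cell.

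TRIM proteins carry a RING finger, B-box zinc fingers and a coiled coil, and most act as E3 ubiquitin ligases, enzymes that attach ubiquitin to chosen proteins. The part that follows the coiled coil sets what they bind. It can be a PRY-SPRY domain, as in many members of antiviral defence, a PHD finger with a bromodomain, as in the transcriptional cofactors, NHL repeats, or a COS box, which directs a protein to microtubules. PHF8 is a Jumonji C histone demethylase whose PHD finger holds on to trimethylated lysine 4 of histone H3, a mark of active promoters, while its catalytic domain removes methyl groups linked to silencing.

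The starts of the members ranged from CpG-rich to nearly CpG-free sequence, and 7 of them are shown because they span that range among bound and unbound genes. Each is the 150 bases that end just before an annotated transcription start site (TSS), read from GRCh37 (the same build as hg19) in the direction of the gene, with every CG in capitals. The TRIM28, TRIM58, TRIM38 and TRIM56 sequences lay within the strongest peak of replicate A at that gene. The TRIM26 sequence met that peak only in part, because the peak ended at 30181230. In B1 and B2 the strongest peak began at 25963021 and 25963000 at TRIM38, and at 100728724 and 100728739 at TRIM56. Those peaks thus covered these 2 sequences only in part. TRIM71 and TRIM42 had no promoter peak.
TRIM28, chr19:59055281-59055430, plus strand: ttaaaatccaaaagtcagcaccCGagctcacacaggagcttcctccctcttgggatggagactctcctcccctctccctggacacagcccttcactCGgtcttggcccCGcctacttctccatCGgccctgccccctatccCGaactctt
TRIM26, chr6:30181205-30181354, minus strand: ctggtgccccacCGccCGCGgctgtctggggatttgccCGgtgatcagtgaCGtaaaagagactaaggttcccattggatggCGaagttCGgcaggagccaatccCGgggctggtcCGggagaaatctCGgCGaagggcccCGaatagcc
TRIM58, chr1:248020339-248020488, plus strand: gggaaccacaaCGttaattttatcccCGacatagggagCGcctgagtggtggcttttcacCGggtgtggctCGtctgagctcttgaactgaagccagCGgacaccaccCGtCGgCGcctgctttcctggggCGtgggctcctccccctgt
TRIM38, chr6:25962880-25963029, plus strand: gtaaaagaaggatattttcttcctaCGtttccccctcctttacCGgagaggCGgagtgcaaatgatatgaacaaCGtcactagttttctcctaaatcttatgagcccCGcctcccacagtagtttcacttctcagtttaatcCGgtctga
TRIM56, chr7:100728612-100728761, plus strand: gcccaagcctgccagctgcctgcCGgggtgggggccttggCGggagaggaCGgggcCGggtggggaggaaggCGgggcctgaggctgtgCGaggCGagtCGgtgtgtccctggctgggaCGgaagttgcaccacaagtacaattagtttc
TRIM71, chr3:32859339-32859488, plus strand: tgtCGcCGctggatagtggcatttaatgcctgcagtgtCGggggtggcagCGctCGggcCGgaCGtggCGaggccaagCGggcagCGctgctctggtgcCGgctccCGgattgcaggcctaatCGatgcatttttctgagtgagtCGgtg
TRIM42, chr3:140396756-140396905, plus strand: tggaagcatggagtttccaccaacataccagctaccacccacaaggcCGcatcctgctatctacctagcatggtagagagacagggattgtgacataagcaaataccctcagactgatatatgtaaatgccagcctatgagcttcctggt
The unbound TRIM71 sequence held 14 CG, more than the 12 of bound TRIM26, the 10 of TRIM58, the 9 of TRIM56, the 6 of TRIM38 and the 5 of TRIM28. TRIM42, also unbound, held 1. Over the 150 bases before the gene start, the letters CG (the same on either strand) were found in all 40 bound members, with a median of 10 and a range of 1 to 32. They were found in 29 of 35 unbound members, with a median of 2 and a range of 0 to 17. Among all autosomal protein-coding genes, 93.1% of such windows held at least 1 CG and the median was 9.

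A member was called bound where a peak of every replicate came within 1 kb of any of its TSSs, upstream or downstream. PHF8 was found at 40 of the 75 TRIM genes (53.3%), beside a background of 61.0% of all autosomal protein-coding genes. The outcome was nearly all or none: a promoter peak was present in all 3 replicates at 40 members, in 2 replicates at 1 member, in 1 replicate at 0 members and in no replicate at 34. Over all autosomal protein-coding genes, 1.12% had a promoter peak in 2 replicates and 1.62% in 1. In replicates A and B1, 41 members had such a peak, and 40 had one in B2. At windows of 500 bp and of 2 kb the bound genes were the same 40. From here on, values given as 3 numbers follow the order A, B1 and B2.

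The exception was TRIM59, a transmembrane RING protein on chromosome 3 (ENSG00000213186). Its fold enrichment, the ratio of ChIP to the local background at the summit of the peak, was 4.76 in A and 5.74 in B1, from 15 and 19 ChIP fragments at the summit. In B2 no peak was listed there, and the nearest was 48706 bp away from a TSS. These are few fragments: the fewest behind any listed peak were 8, 8 and 10, so at this depth a missing call does not show that PHF8 was absent from TRIM59 in B2.

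The 35 unbound members, TRIM59 included, were mostly far from any peak. The peak nearest to a TSS was over 10 kb away for 29 of them, with a median of 51663 bp. The closest outside the window was that of TRIM31, a ligase of innate immune signalling, at 2960 bp, 2969 bp and 2879 bp. TRIM22, an interferon-induced restriction factor, followed at 4190 bp, 4567 bp and 4575 bp. Between 1 kb and the TRIM31 distance no member had its nearest peak.

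Base composition at the start separated most bound from unbound members. Within 250 bp of the gene start, the GC content had a median of 63.3% in bound members (34.5% to 76.4%) and 47.1% in unbound members (34.3% to 71.1%). The ratio of observed to expected CpG had a median of 0.792 in bound members (0.252 to 1.21) and 0.216 in unbound members (0 to 1.05). The ranges overlapped in both measures. Over all autosomal protein-coding genes the medians were 64.5% and 0.819 for bound and 55.5% and 0.328 for unbound genes. The medians of the bound TRIM genes were thus close to those of all bound genes, while those of the unbound TRIM genes were below those of all unbound genes.

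Where the 250 bp on either side of a TSS held at least 50% GC and a CpG ratio of 0.6 or more, that TSS was termed CpG-island-like. Any TSS of a gene could place it in this class, and its peak could lie at another TSS. Of the 75 members, 43 had a CpG-island-like TSS (57.3%), beside 73.0% of all autosomal protein-coding genes. Among these 43, PHF8 was bound at 35 (81.4%), beside a background of 80.0%. Among the 32 members with no such TSS it was bound at 5 (15.6%), beside a background of 9.72%. Within the CpG-island-like class, then, the share of TRIM genes bound was near that of all genes, and the other class holds only 5 bound members. Bound members also had more TSSs, with a median of 7 (1 to 36) against 2 (1 to 21). Their searched window was thus wider, with a median of 5877.5 bp against 2887 bp. Over all autosomal protein-coding genes, bound and unbound, the medians were 7 and 3 TSSs, and 6107 bp and 3705 bp. Windows of 500 bp and 2 kb left the same 40 members, and the use of 1 TSS per gene left 37 and lost TRIM5, TRIM34 and TRIM36.

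**Figure D1:**
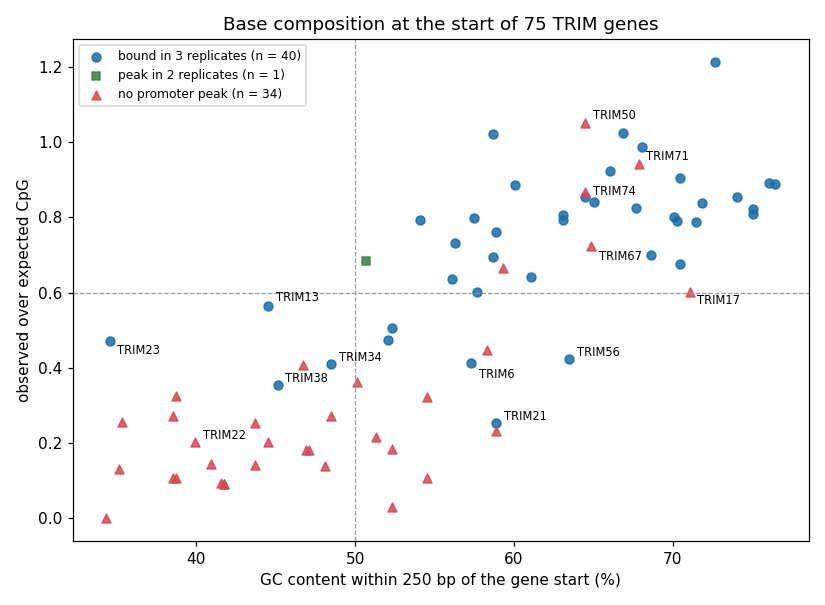
GC content (x axis, %) and ratio of observed to expected CpG (y axis) within 250 bp of the start of each of the 75 TRIM genes, by whether a promoter peak was listed in 3, 2 or 0 replicates. Dashed lines mark 50% and 0.6. Most of the 40 bound genes sit at the upper right, most unbound genes at the lower left, and 7 genes without a call (TRIM17, TRIM50, TRIM59, TRIM67, TRIM71, TRIM73 and TRIM74) are within the CpG-rich area.

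The 5 bound members without a CpG-island-like TSS were TRIM38, TRIM21, TRIM34, TRIM56 and TRIM6. All 5 belong to the antiviral or interferon-linked list described further on. Their peaks were weak among all targets, but were not compared with those of other bound genes without a CpG-island-like TSS. The percentile of fold enrichment among all targets, averaged over replicates (100 is the strongest), had a median of 13.5 over these 5, against 61.8 over the 35 bound members with a CpG-island-like TSS. TRIM38 was the highest of them, at fold enrichments of 27.5, 9.32 and 10.8. TRIM6 was the lowest, at 14.6, 5.68 and 6.36.

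The 8 members with a CpG-island-like TSS and no call were TRIM17, TRIM50, TRIM59, TRIM67, TRIM71, TRIM73, TRIM74 and TRIML2. TRIM71 (also LIN41) is a factor of early embryos that is silenced by let-7 microRNAs, and its nearest peak was 36366 bp, 36355 bp and 36355 bp away. TRIM67, a neuronal member, had its nearest peak at 77864 bp, 77761 bp and 77810 bp. Peaks were closer at TRIM17 (8518 bp, 8356 bp and 8447 bp) and TRIM50 (8111 bp, 8084 bp and 8064 bp). The distances were 8818 bp, 40884 bp and 40893 bp at TRIM73 and 36213 bp, 41368 bp and 41494 bp at TRIM74. At TRIML2 they were 628848 bp, 1255684 bp and 1255811 bp. TRIM50, TRIM73 and TRIM74 are near copies of one another on chromosome 7. Of the 50-base words in the window around the gene start, 38.8% at TRIM50, 90.0% at TRIM73 and 97.5% at TRIM74 occurred elsewhere in the genome. A read from such sequence has several equal matches, so a missing peak there does not show that PHF8 was missing.

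Copied sequence was common among unbound members as a whole. Over 20% of the words around the start occurred elsewhere for 15 of 35 unbound members and for 1 of 40 bound members, TRIM16 (37.7%). Among the 59 members with at most 20% of copied words, 39 were bound (66.1%), beside the 61.0% of all genes, to which the filter was not applied. This filter was chosen after the data were seen. The authors aligned with the defaults of Bowtie2, which place a read with several equal matches at one of them, and whether such reads were later removed is not given in the sources used here. The part of copied sequence in the missing peaks was not tested.

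Over all 40 bound TRIM genes, peak strength differed from that at other PHF8 targets by less than the spread between replicates. The median fold enrichment of the strongest promoter peak per gene was 35.8, 19.7 and 16.1. The 11690 other targets stood at 33.9, 19.7 and 18.7. The difference of the log2 medians, members minus other targets, was 0.079, 0.0035 and -0.21. Its mean was -0.043 ± 0.15 (SD, n = 3), which is smaller than the spread between replicates (exact two-sided sign-flip permutation test, p = 1, where 3 replicates cannot go below 0.25). The result was not stable to the processing. The mean difference was 0.067 with fragments in place of fold enrichment and 0.10 among targets with a CpG-island-like TSS. It was 0.15 ± 0.020 (SD, n = 3) among genes with a fold enrichment above 10 and 0.076 ± 0.067 (SD, n = 3) with 1 TSS per gene. Those last differences were positive in all 3 replicates and larger than their spread, at the smallest exact permutation p the design allows (0.25). The cutoff of 10, however, selects on the fold enrichment that is then compared. It dropped 12 of the 40 bound members and left 9776 of the 11730 targets. The difference at that cutoff therefore cannot tell whether peaks at members are stronger. At a fold enrichment above 10 in every replicate, 28 members kept the call (37.3%), beside a background of 50.8%.

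The members nevertheless spanned almost the whole scale of targets. Mean percentiles ran from 2.72 to 94.3 with a median of 43.6. Of the 40, 11 lay above percentile 75 and 11 below percentile 25. For a typical member the SD of the percentile over the replicates was 7.19, far less than the distance between the ends of the list.

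**Figure D2:**
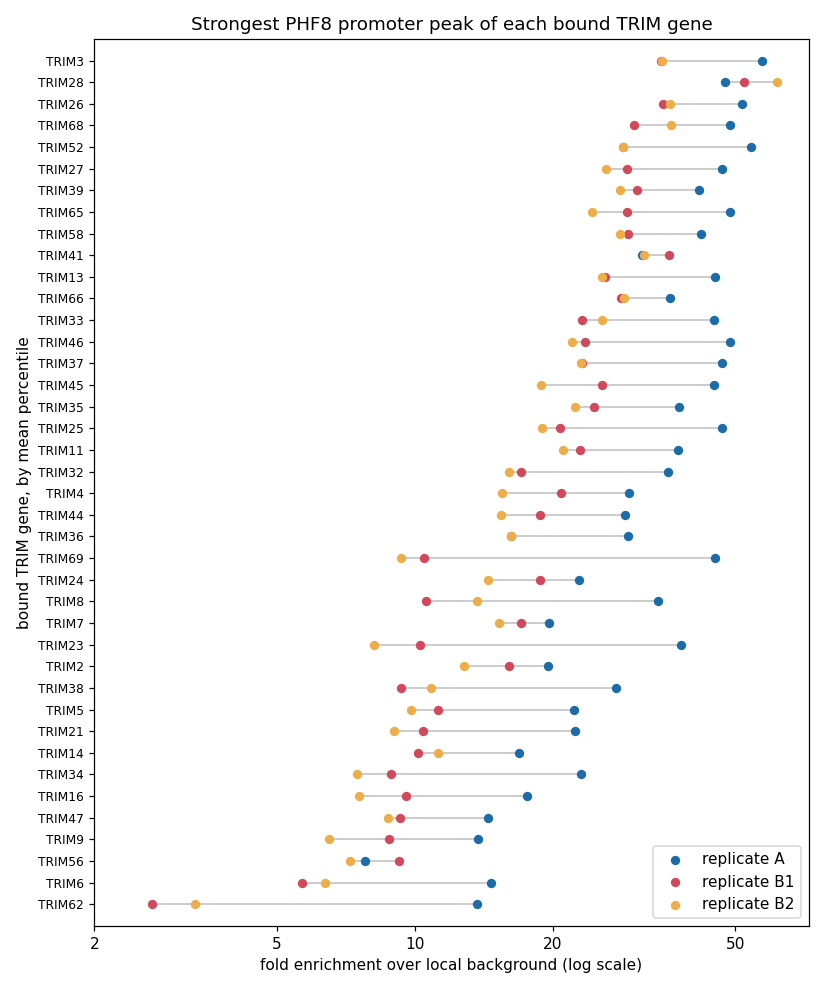
Fold enrichment over local background (x axis, log scale) of the strongest PHF8 promoter peak at each of the 40 bound TRIM genes (y axis, ordered by mean percentile among targets). Points are replicates A, B1 and B2 and a grey line joins the lowest and highest. TRIM3, TRIM28 and TRIM26 lead the list, TRIM62 is last, and A lies above B1 and B2 for most genes.

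TRIM3, an NHL-repeat ligase studied in neurons, had the highest mean percentile, 94.3 ± 0.86 (SD, n = 3). Fold enrichment reached 57.0, 34.4 and 34.5, from 147, 100 and 104 fragments. TRIM28 (also KAP1), the corepressor that KRAB zinc finger proteins recruit to silence retroelements, followed at 93.8 ± 10.6. Fold enrichment reached 47.4, 52.2 and 61.7, from 205, 160 and 188 fragments, and among the top 5 members it was the one at which A was the lowest of the 3. The TRIM28 peak of replicate A covered chr19:59054953-59056538, with the summit in the untranslated part of the transcript 112 bp downstream of a TSS. Its sequence upstream of the gene start, printed above, held the fewest CG of the bound genes shown. That gene start lies upstream of the TSS next to the summit. The TRIM28 TSS with the highest CpG ratio had 74.9% GC and a ratio of 1.12, against 58.7% and 0.696 at the gene start.

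TRIM26, a PRY-SPRY gene of the major histocompatibility region, stood at 51.7, 34.7 and 36.0 (92.9 ± 4.31). TRIM68, a cofactor of the androgen receptor, stood at 48.5, 30.0 and 36.1 (88.7 ± 7.05). TRIM52 stood at 54.2, 28.4 and 28.5 (86.3 ± 4.75). In these 3 genes A was above both B replicates.

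At the other end, TRIM62 stood at 13.6, 2.66 and 3.31, from 34, 13 and 17 fragments (2.72 ± 4.64), with A far above both B replicates. Its −log10 q-values were 31.0, 1.42 and 3.42, and the one of B1 was the lowest of any bound member. It was lost at a q-value below 0.001 and at a fold enrichment above 4. TRIM56, a ligase of the response to viral nucleic acid, stood at 7.79, 9.21 and 7.23 (6.50 ± 4.48), and with 19 fragments its peak in A rested on the fewest of the 40 bound members. TRIM9, a neuronal ligase of netrin signalling, stood at 13.7, 8.76 and 6.48 (7.46 ± 2.49), and TRIM47 at 14.4, 9.28 and 8.73 (10.2 ± 0.99).

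Peaks of bound members came within 1 kb of a TSS by rule, and the summit was measured from the nearest TSS of the gene. Closeness to a TSS thus follows in part from the rule. Summit positions were not counted over all targets, so they are not a trait of TRIM genes. The summit was downstream at 30, 31 and 31 of 40 members, with a median position of 92.5 bp, 93.5 bp and 86 bp after the TSS. It lay within 200 bp of a TSS of the gene at 34, 31 and 33 members. By annotation, the summit in A fell in an untranslated part of an exon at 21 members, in a coding part at 8, in an intron at 7 and outside the gene at 4. The median width was 888.5 bp, 715 bp and 609.5 bp.

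Some peaks were shared with neighbouring genes. The strongest peak of 21 bound members also met the window of another gene, and for 8 of them this was another protein-coding gene. Those pairs were TRIM66 with RPL27A, TRIM46 with KRTCAP2, TRIM35 with PTK2B, TRIM32 with ASTN2, TRIM23 with SHLD3 and TRAPPC13, TRIM2 with ENSG00000288637, TRIM34 with ENSG00000239920 and TRIM6 with the readthrough gene TRIM6-TRIM34. At TRIM46 the summit lay upstream, at -655 bp, -630 bp and -637 bp from its TSS, and the TSS nearest to it in A belonged to KRTCAP2. In A the summit was also nearest to a TSS of another gene, coding or not, at TRIM8, TRIM13, TRIM32, TRIM34, TRIM37 and TRIM39. Which gene such a peak belongs to was not tested.

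The replicates ordered the 40 members alike, and B1 and B2 most of all. Across these genes, which are not independent replicates, Spearman's rho of fold enrichment was 0.970 between B1 and B2, 0.806 between A and B1 and 0.810 between A and B2. With ChIP fragments at the summit in place of fold enrichment, rho was 0.974, 0.919 and 0.931. Fold enrichment was higher in A, by a median ratio of 1.67 over B1 and 1.83 over B2, and the ratio of A to B1 ranged from 0.846 to 5.12. The fragment ratio of A to B1 had a median of 1.54 and a narrower range, from 0.731 at TRIM56 to 2.62 at TRIM62, over the 39 members whose strongest peaks overlapped between A and B1, all but TRIM8. TRIM56 and TRIM62 also set the ends of the fold enrichment ratio.

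The percentile varied most between replicates at TRIM69, TRIM41 and TRIM23. TRIM69 stood at percentiles 76.9, 14.6 and 12.3. Its fragments were 116, 63 and 58, while the background expected at its summit was 1.59, 5.11 and 5.33 fragments. TRIM23, which carries an ARF-type GTPase domain, had fold enrichments of 38.1, 10.2 and 8.14, from 139, 79 and 65 fragments over a background of 2.68, 6.81 and 7.11. In B1 and B2 both genes were well above the genome-wide background, which was 1.57, 1.93 and 2.04. TRIM41 was opposite, at percentiles 43.6, 95.1 and 91.4, with 114, 116 and 106 fragments over 2.68, 2.27 and 2.40. Between A and the B replicates, the background of TRIM69 and TRIM23 differed by a larger ratio than their fragments did, and B1 and B2 were alike in each case. The part of the inputs in these differences was not tested.

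**Figure D3:**
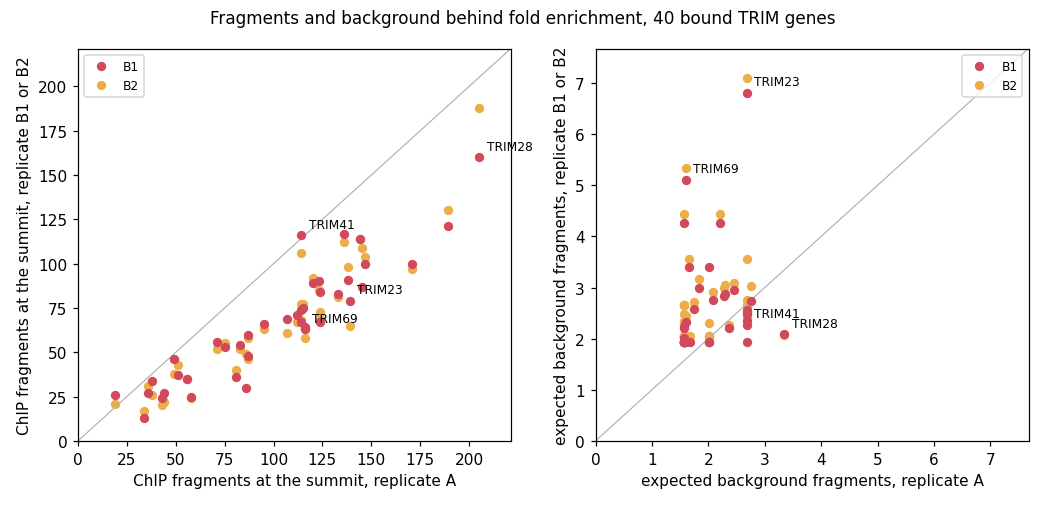
ChIP fragments at the summit (left) and expected background fragments at the summit (right) of the strongest promoter peak at each of the 40 bound TRIM genes, with replicate A on the x axis and B1 or B2 on the y axis. The grey line marks equal values. Most genes had more fragments in A, and TRIM23 and TRIM69 stand out by a background above 5 in B1 and B2.

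By protein type, the PHD-bromodomain cofactors of transcription were bound at 4 of 4 genes, with a median percentile of 73.6. All 4 had a CpG-island-like TSS, a class bound at 80.0% among all genes. TRIM28 led this list. TRIM66 stood at 36.0, 28.1 and 28.5, and TRIM33 (also TIF1γ), which acts on SMAD4 in TGFβ signalling, at 44.8, 23.2 and 25.6. TRIM24 (also TIF1α), a cofactor of nuclear receptors, was the lowest at 22.8, 18.8 and 14.5.

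The NHL-repeat members, which bind RNA or cargo proteins, were bound at 3 of 4 genes. All 4 had a CpG-island-like TSS, beside the 80.0% bound among all such genes. After TRIM3 came TRIM32, mutated in a limb-girdle muscular dystrophy, at 35.6, 17 and 16. TRIM2, which acts on a neurofilament subunit, stood at 19.5, 16.0 and 12.8, and had 36 TSSs, the most of any member. TRIM71 was the unbound one.

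The COS-box members of the cytoskeleton were bound at 3 of 8 genes. Of the 8, 4 had a CpG-island-like TSS, and 3 of these 4 were bound, beside 80.0% of all such genes. TRIM46, which bundles microtubules at the start of the axon, stood at 48.7, 23.5 and 22, with the shared peak described above. TRIM36 stood at 29.2, 16.2 and 16.2, and TRIM9 was near the bottom of all targets. The muscle-specific TRIM54, TRIM55 and TRIM63, known for their place in the sarcomere, were unbound, as were TRIM42 and TRIM67. TRIM67 was the one unbound gene of this list with a CpG-island-like TSS.

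Of the transmembrane members, TRIM13 of the endoplasmic reticulum was bound at 45.2, 25.9 and 25.6, and TRIM59 was the gene with a peak in 2 replicates. The 3 members with another C-terminal domain were all bound, and each had a CpG-island-like TSS, a class bound at 80.0% among all genes. TRIM37, a centrosome regulator mutated in Mulibrey nanism, stood at 46.8, 23.2 and 23, and TRIM45, with a filamin-type domain, at 44.8, 25.6 and 18.8. These 2 were in the upper part of the targets, in contrast to TRIM23.

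The antiviral or interferon-linked members were bound at 8 of 9 genes. All 3 with a CpG-island-like TSS (TRIM5, TRIM14 and TRIM25) were bound, beside the background of 80.0%, and 5 of the 6 without one, beside 9.72%. With so few genes, and lists chosen with results known, these counts are a description. The list is also not complete: TRIM31, the unbound ligase of innate immune signalling named above, was not in it. Peaks in this list were low, with a median percentile of 15.4 over the 8. TRIM25, the ligase that activates the RNA sensor RIG-I, was the exception at 46.7, 20.7 and 18.9 and a mean percentile of 61.8. TRIM5, which restricts retroviral capsids, stood at 22.2, 11.2 and 9.82, and its strongest peak was not at its CpG-island-like gene start. TRIM21, an intracellular receptor for antibodies, stood at 22.3, 10.4 and 9.0, and TRIM14, an adaptor at mitochondria, at 16.9, 10.1 and 11.2. TRIM34 stood at 23, 8.87 and 7.48. All of these except TRIM14 and TRIM25 fell below a fold enrichment of 10 in at least 1 replicate, as did TRIM6, TRIM38 and TRIM56. TRIM22 had no promoter peak in any replicate, with 15 TSSs searched.

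The primate-expanded PRY-SPRY copies were bound at 0 of 12 genes, and 0 of 12 had a CpG-island-like TSS. Among all genes without such a TSS, 9.72% were bound. The 12 copies are TRIM43, TRIM43B, TRIM48, TRIM49, TRIM49B, TRIM49C, TRIM51, TRIM51G, TRIM64, TRIM64B, TRIM64C and TRIM77. The share of copied words around their starts ran from 20.1% at TRIM48 to 83.0% at TRIM64, and the median number of TSSs was 1. The distance to the nearest peak reached 2015949 bp at TRIM48.

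The remaining 33 members, in no list, were bound at 18 genes, with a median percentile of 63.0. All 18 were among the 23 with a CpG-island-like TSS (78.3%), beside the background of 80.0%. Besides TRIM26, TRIM68, TRIM52, TRIM41, TRIM69, TRIM16, TRIM47 and TRIM62, already described, the bound ones were TRIM4, TRIM7, TRIM8, TRIM11, TRIM27, TRIM35, TRIM39, TRIM44, TRIM58 and TRIM65. TRIM58, an erythroid ligase with a single TSS, stood at 42.0, 29.2 and 28.1. TRIM8 had 3 separate regions in its windows, and its strongest peak was not at one site: the summits were at 104403563, 104402385 and 104403609 on chromosome 10, and the peak of B1, nearer to the gene start, did not overlap those of A and B2. The unbound ones were TRIM29, an epithelial gene, TRIM72, which repairs muscle membranes, TRIM10, TRIM15, TRIM17, TRIM31, TRIM40, TRIM50, TRIM60, TRIM61, TRIM73, TRIM74, TRIM75, TRIML1 and TRIML2.

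Many members lie together in the genome. Clusters were taken as at least 3 members with neighbouring gene starts at most 500 kb apart, which gave 6 clusters with 24 members, of which 8 were bound (33.3%). In 6 pairs, 5 of 12 members were bound (41.7%), and 27 of 39 single members were bound (69.2%), beside the 61.0% of all genes. CpG-island-like members numbered 6 of 24 in clusters, 8 of 12 in pairs and 29 of 39 among single genes. Bound were all 6 in clusters, 4 of the 8 in pairs and 25 of the 29 single ones, beside the 80.0% of all CpG-island-like genes. Neighbouring genes are not independent, and the difference between clustered and single members was not tested.

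The clusters differed from one another. On chromosome 5, TRIM7, TRIM41 and TRIM52 lay within 67.2 kb, each with a CpG-island-like TSS, and all 3 were bound. TRIM7, which binds glycogenin, stood at 19.6, 17.0 and 15.2, and TRIM41 at 31.3, 35.8 and 31.5. On chromosome 6, in the major histocompatibility region, TRIM26 and TRIM39 (41.6, 30.4 and 27.9) were bound out of 6 members within 241 kb. These 2 were the CpG-island-like ones. TRIM31, TRIM40, TRIM10 and TRIM15, which precede them on the chromosome, were unbound.

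On chromosome 11, TRIM6, TRIM34, TRIM22 and TRIM5 spanned 343 kb, and 3 of the 4 were bound although 1 had a CpG-island-like TSS. All 3 stood at low fold enrichment in B1 and B2, as given above. The other chromosome 11 clusters, with TRIM51G, TRIM49B and TRIM64C within 83.6 kb and TRIM77, TRIM49, TRIM64B, TRIM64 and TRIM49C within 332 kb, held 0 bound of 3 and 0 of 5. TRIM61, TRIM60 and TRIM75 on chromosome 4, within 106 kb, were unbound as well. In that last cluster 1.28% to 9.12% of words were copied. None of the members of these unbound clusters had a CpG-island-like TSS, and the cause of the missing peaks was not tested.

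**Figure D4:**
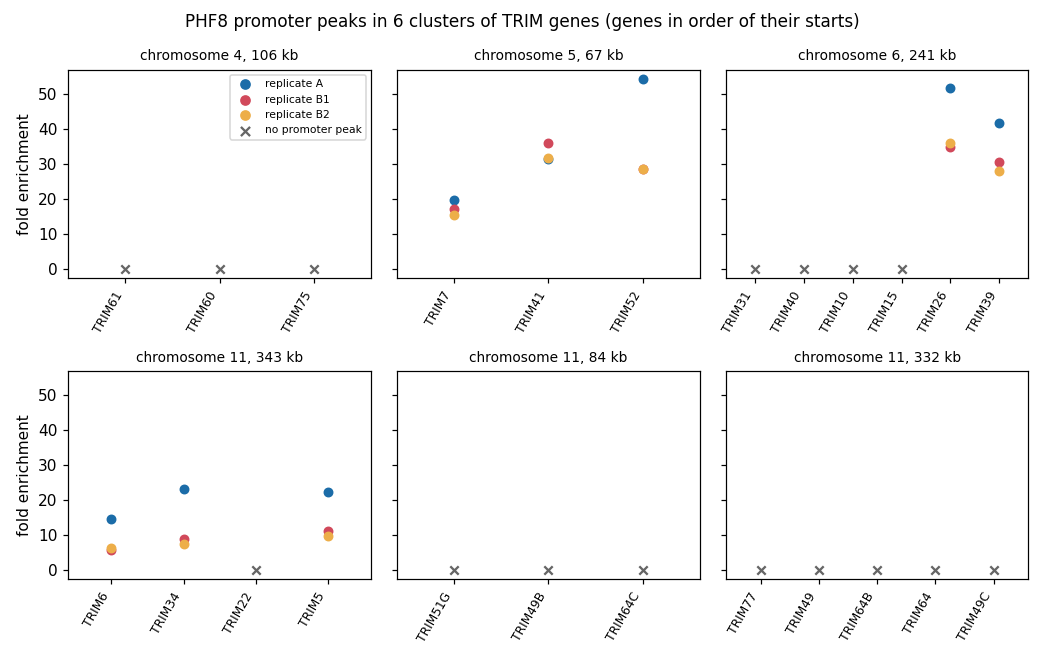
Fold enrichment (y axis) of the strongest promoter peak in replicates A, B1 and B2 at the members of each of the 6 clusters, in order of their starts (x axis, not to scale). A grey cross at 0 marks a gene with no promoter peak. The chromosome 5 cluster has 3 of 3 genes bound, the chromosome 6 cluster and the TRIM6 to TRIM5 cluster on chromosome 11 are mixed, and 3 clusters have none.

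Of the 6 pairs, 1 was split. TRIM11 was bound at 37.4, 22.8 and 21.0 and its neighbour TRIM17 was not, although both had a CpG-island-like TSS and lay within 23.2 kb. TRIM47 and TRIM65, within 22.8 kb on chromosome 17, were both bound but at different strength, with TRIM65 at 48.7, 29 and 24.3. TRIM21 and TRIM68 on chromosome 11 were both bound, TRIM68 being near the top and TRIM21 near the bottom of the members. TRIM43 with TRIM43B, TRIML1 with TRIML2 and TRIM50 with TRIM74 had no bound gene.

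Other families of the ubiquitin system were counted in the same way. The UBE2 genes, the E2 enzymes that hand ubiquitin to ligases, were bound at 33 of 35 (94.3%), with all 35 CpG-island-like. RING finger genes named RNF and a number were bound at 66 of 82 (80.5%), and at 66 of their 71 CpG-island-like members (93.0%). The TRIM family, at 35 of 43 (81.4%), was near the 80.0% of all CpG-island-like genes. Bound members had a median percentile of 64.6 for UBE2 and 60.3 for RNF genes, against 43.6 for TRIM genes. Over all autosomal protein-coding targets the median was 50.8. The bound UBE2 and RNF genes were all CpG-island-like, and the 35 bound TRIM genes of that class had a median of 61.8. These families were compared by counts and not tested.

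The peak lists held 21506 peaks in A, 20882 in B1 and 20120 in B2. Promoter peaks were listed in all 3 replicates at MITF, SOX10, PAX3 and PMEL of the melanocyte lineage but not at TYR, DCT or MLANA, and at neither KRT5 and KRT14 nor CD3D and CD3E. These are peaks and do not measure expression.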

How the data were processed

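PHF8 ChIP-seq peak lists of 3 replicates of SKMEL-147 cells were used, and the 2 inputs entered only through values of the authors' peak caller. According to the methods and labels, reads were aligned by the authors to hg19 with Bowtie2, and narrow peaks were called with MACS in each replicate against input. The printed direction of their q-value cutoff was read as below 0.05. Read totals and duplicate handling are not given in the sources used here.

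The deposited lists give a fold enrichment (a linear ratio of ChIP to local background at the summit), −log10 p-values and q-values, a score derived from the q-value, which was not used, and the summit.

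A TSS was the 5′ end of any transcript of a gene (GENCODE 44, GRCh37), and 0 peaks ran past a chromosome end. The strongest promoter peak stood for a gene, and its percentile was its rank among autosomal protein-coding targets of that replicate. ChIP fragments at a summit were recovered as the whole number that, with an expected background, gives the deposited fold enrichment and p-value alike under a Poisson law, which held for 100% of peaks within 0.001. Fragments are not corrected for amplification. Copied sequence was the share of 50-base words around a gene start found again in GRCh37. Scripts ran in Python 3.11.15 with numpy 2.4.6, scipy 1.17.1, pandas 2.3.3 and numba 0.67.0, and were tested on simulated data.

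With 1 group, conditions could not be compared. The difference of log2 median fold enrichment was tested over the replicates by exact sign-flip permutation, two-sided, and gene counts are descriptions. Values were given for the 5 highest and 5 lowest bound members by mean percentile, members with a peak in 1 or 2 replicates, unbound members with a CpG-island-like TSS, members of clusters, and lists by domain or role. TRIM69, TRIM41, TRIM11, TRIM65, TRIM58, TRIM8 and TRIM16 were named for further values after these were seen. The members, lists and families were chosen with earlier results of these data known. Alternatives were other windows, TSS sets, cutoffs, replicate rules, name rules, cluster gaps and CpG cutoffs, leaving out each replicate and, added after the data were seen, leaving out members with copied windows. The sequence before 1 further gene start is not reported here.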

Additional observations from a re-analysis of the deposited data

How the results depend on the processing

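The count of 40 bound members lay between 37 and 41 under every alternative window, TSS set, name rule and left-out replicate, was 39 at a q-value below 0.001 or a fold enrichment above 4, and fell to 28 at a fold enrichment above 10. Without B2, or with a peak in at least 2 replicates, TRIM59 was gained (41). The count of bound CpG-island-like members lay between 28 and 36, but the number in the class changed too. It was 28 of 43 at a fold enrichment above 10, 28 of 34 with stricter CpG cutoffs and 31 of 38 with the class set at the gene start. The 8 bound members in clusters became 5 at a fold enrichment above 10, which leaves TRIM7, TRIM41, TRIM52, TRIM26 and TRIM39, and 11 of 27 with gaps up to 1 Mb. The log2 difference between bound members and other targets (-0.043) changed sign under 5 alternatives: 0.076 with 1 TSS per gene, 0.15 at a fold enrichment above 10, 0.067 with recovered fragments, 0.10 among CpG-island-like targets and 0.017 without B2. Leaving out each replicate in turn gave -0.10 to 0.017, and no exact permutation p was below 0.25, the smallest the design allows. The cause of these changes was not tested. No paired analysis was possible because there is 1 group of ChIP replicates. The weakest calls rest on few fragments, 34, 13 and 17 at TRIM62 (over a background of 1.57, 4.25 and 4.44) and 15 and 19 at TRIM59; the part of depth in them was not tested.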

Other observations

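Genes of TRIM structure that bear other names were outside the rule, and some were bound. PML, which builds the nuclear bodies that bear its name, had a promoter peak in all 3 replicates, with fold enrichments of 19.1, 14.6 and 12.9 in A, B1 and B2. RNF207 stood at 15.2, 17.4 and 12.2. The X-linked MID1 and MID2, microtubule-bound COS-box ligases, stood lower, at 3.90, 5.80 and 4.6 and at 9.35, 5.46 and 5.91. MEFV, the gene of familial Mediterranean fever, and CMYA5, a muscle gene, had no promoter peak in any replicate.

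Of 8 long non-coding records with TRIM names, 3 had a promoter peak in all 3 replicates, 1 in 2 and 4 in none (TRIM7-AS1, TRIM31-AS1, TRIM36-IT1 and TRIM67-AS1). TRIM52-AS1, which starts next to TRIM52 on the other strand, had the peak of TRIM52 (54.2, 28.4 and 28.5). TRIM7-AS2 stood at 44.6, 28.3 and 25, above TRIM7 itself at 19.6, 17.0 and 15.2. TRIM8-DT stood at 33.9, 7.76 and 13.6. The long non-coding TRIM16L record had a peak in A (6.62) and B1 (4.77) and none in B2. TRIM49D1, TRIM49D2 and TRIM39-RPP21 had no promoter peak.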
